A study of Mus musculus with 2 samples.

Results

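Hair cells, the mechanosensory cells of the organ of Corti, are specified and kept in their state by a small set of transcription factors, and the chromatin around the genes of 9 of these factors was examined here. The genes were *Atoh1*, *Pou4f3*, *Gfi1*, *Barhl1*, *Insm1*, *Ikzf2*, *Tbx2*, *Rfx1* and *Rfx3*, chosen by name for their known roles. ATAC-seq peaks were assigned to a gene when the peak centre lay within 3 kb of one of its annotated transcription start sites (TSS), called a promoter peak here, or within the gene body and 50 kb on either side of it. These genes held 62 of 77596 peaks labelled WT and 57 of 100431 peaks labelled Bmi1-/-.

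ATAC-seq marks open chromatin, because the Tn5 transposase inserts adapters where DNA is accessible. Organs of Corti of 10 mice (20 cochleae) at postnatal day 2 were pooled by genotype, and each pool gave 1 library of 20000 cells. The WT and Bmi1-/- mice were littermates of a constitutive knockout line on a C57BL/6J background, in which the loss of BMI1, a subunit of the Polycomb repressive complex PRC1, is not restricted to a cell type. No other allele or agent was used. With 1 library per genotype there was no replicate, no difference between genotypes was tested, and the intervals below are exact 95% intervals that cover counting error only. The organ of Corti at this age holds few hair cells among supporting cells and other cells, and in such a mixed sample fewer cells of a type and less open chromatin per cell cannot be told apart.

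The 2 lists differed in ways that bear on every comparison. All peak names in the list labelled WT carried the prefix bko, and all those in the list labelled Bmi1-/- carried the prefix bwt, so groups were taken from the labels alone and every direction below is that of the labels. The local background against which a peak was called, solved from the deposited values, was most often 6.32 reads for peaks labelled WT and 8.04 reads for those labelled Bmi1-/-, which differ by a ratio of 1.27. At that background the weakest listed peaks had 13 and 15 reads at the summit, so absence from a list does not mean absence of reads. *Bmi1* itself had 1 promoter peak labelled WT, with 17 reads over a background of 6.32. It had 4 promoter peaks labelled Bmi1-/-, with up to 29 reads over a background of 9.58. The deleted part of the gene is not given in the sources used here, so these peaks do not check the labels.

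The members act in an order. ATOH1, a basic helix-loop-helix factor, starts the hair cell program and binds E-box sequences together with E proteins, and it also maintains its own transcription through an enhancer that lies downstream of its coding region. POU4F3, GFI1 and BARHL1 act after it in the differentiation and survival of hair cells. INSM1 and IKZF2 (Helios) belong to outer hair cells, whereas TBX2 belongs to inner hair cells. RFX1 and RFX3 bind X-box sequences, are also regulators of ciliary genes, and are needed for the survival of outer hair cells.

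The sequences that the results turn on are given first, all in build mm10 (GRCm38) and 5′ to 3′ on the strand of the gene. Promoters are the 300-base RefSeq windows around a TSS (GRCm38.p6), which were matched by symbol for 5 of the 9 genes, with a second window for *Gfi1* and for *Barhl1*. Of the 300 bases of the *Atoh1* promoter at chr6:64728875-64729174, 201 lay in a peak labelled Bmi1-/- and 0 in a peak labelled WT. A peak labelled WT ended at chr6:64728874, directly before this window. Just upstream of the window, chr6:64728590-64728809 is the stretch of 220 bases that peaks of both lists covered. A further *Atoh1* stretch, chr6:64734169-64734468, is the middle of the strongest peak around this gene, which was labelled Bmi1-/- and lay past the gene end. The *Gfi1* window at chr5:107724294-107724593 had 155 bases in a peak labelled WT and 0 in one labelled Bmi1-/-, whereas the *Rfx1* promoter (chr8:84066586-84066885) and the *Rfx3* promoter (chr19:28011117-28011416) were covered over all 300 bases by peaks labelled Bmi1-/- and over 83 and 63 bases by peaks labelled WT. The last stretch, chr19:27758855-27758991, is the part of 137 bases that both lists shared downstream of *Rfx3*. Capitals mark matches to a searched motif or, in *Rfx1* and *Rfx3*, a longer string of 14 letters described with the motifs.
Atoh1 promoter: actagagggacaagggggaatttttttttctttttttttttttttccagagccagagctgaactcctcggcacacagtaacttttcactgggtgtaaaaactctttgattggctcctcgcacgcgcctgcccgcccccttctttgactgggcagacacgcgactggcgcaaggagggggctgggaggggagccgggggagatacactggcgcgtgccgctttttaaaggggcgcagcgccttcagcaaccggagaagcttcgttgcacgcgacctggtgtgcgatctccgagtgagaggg
Atoh1 stretch in peaks of both lists: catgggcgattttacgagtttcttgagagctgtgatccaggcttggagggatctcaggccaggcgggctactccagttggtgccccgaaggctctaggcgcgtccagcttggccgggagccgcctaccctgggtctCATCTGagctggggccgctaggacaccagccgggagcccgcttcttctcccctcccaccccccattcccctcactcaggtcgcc
Atoh1 downstream peak labelled Bmi1-/-: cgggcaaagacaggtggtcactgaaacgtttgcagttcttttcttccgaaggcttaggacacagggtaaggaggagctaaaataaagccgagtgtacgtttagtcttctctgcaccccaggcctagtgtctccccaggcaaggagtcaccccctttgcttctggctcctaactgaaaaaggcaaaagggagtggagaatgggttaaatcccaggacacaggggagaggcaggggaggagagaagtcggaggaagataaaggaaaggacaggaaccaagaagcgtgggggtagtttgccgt
Gfi1 promoter: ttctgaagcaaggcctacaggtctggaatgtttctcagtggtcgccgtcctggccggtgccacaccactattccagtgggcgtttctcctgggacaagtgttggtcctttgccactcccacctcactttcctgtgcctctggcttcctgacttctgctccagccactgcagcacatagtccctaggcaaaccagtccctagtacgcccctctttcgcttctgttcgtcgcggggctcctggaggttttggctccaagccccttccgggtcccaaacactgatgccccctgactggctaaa
Rfx1 promoter: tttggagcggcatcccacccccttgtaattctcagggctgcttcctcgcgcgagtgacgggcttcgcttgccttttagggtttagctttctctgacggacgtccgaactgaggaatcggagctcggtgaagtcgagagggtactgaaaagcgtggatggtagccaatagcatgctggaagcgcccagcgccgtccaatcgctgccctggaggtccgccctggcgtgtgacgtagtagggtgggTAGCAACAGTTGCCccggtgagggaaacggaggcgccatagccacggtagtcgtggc
Rfx3 promoter: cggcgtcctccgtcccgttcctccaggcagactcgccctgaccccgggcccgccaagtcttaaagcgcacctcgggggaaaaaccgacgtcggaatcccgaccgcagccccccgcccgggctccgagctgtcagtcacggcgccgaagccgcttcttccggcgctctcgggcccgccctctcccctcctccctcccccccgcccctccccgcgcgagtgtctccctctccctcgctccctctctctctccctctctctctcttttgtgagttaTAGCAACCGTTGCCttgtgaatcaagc
Rfx3 downstream stretch in peaks of both lists: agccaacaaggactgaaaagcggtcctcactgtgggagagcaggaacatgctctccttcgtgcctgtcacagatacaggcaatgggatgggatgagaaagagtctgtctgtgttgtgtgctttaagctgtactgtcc

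The promoters of the fate factors had a listed peak in both lists with a single exception. *Atoh1*, *Pou4f3*, *Gfi1*, *Insm1*, *Ikzf2*, *Tbx2*, *Rfx1* and *Rfx3* had a promoter peak in each list, that is 8 of 9 genes, and *Barhl1* had one labelled WT alone. Among all 21938 protein-coding genes the share with one in both lists was 53.0%, while 15.2% had one labelled Bmi1-/- alone, 6.10% one labelled WT alone and 25.7% none. Counting only peaks with a q-value of at most 0.05, 6 of 9 genes had one in both lists, beside 39.5% of all protein-coding genes. The promoter peaks of *Pou4f3* and of *Insm1* did not overlap between the lists. Around the 9 genes, whose regions together span 1371 kb, the number of peaks was 62 labelled WT and 57 labelled Bmi1-/-. The ratio was 0.919 (0.630 to 1.34), beside a ratio of 1.29 over all peaks of the lists. The order of the counts depended on the flanks and on the strength of the peaks. Flanks of 100 kb on either side gave 99 peaks labelled WT and 113 labelled Bmi1-/-. Peaks with a q-value of at most 0.05 numbered 34 labelled WT and 40 labelled Bmi1-/-, beside 40640 and 63066 over the whole lists.

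**Figure D1:**
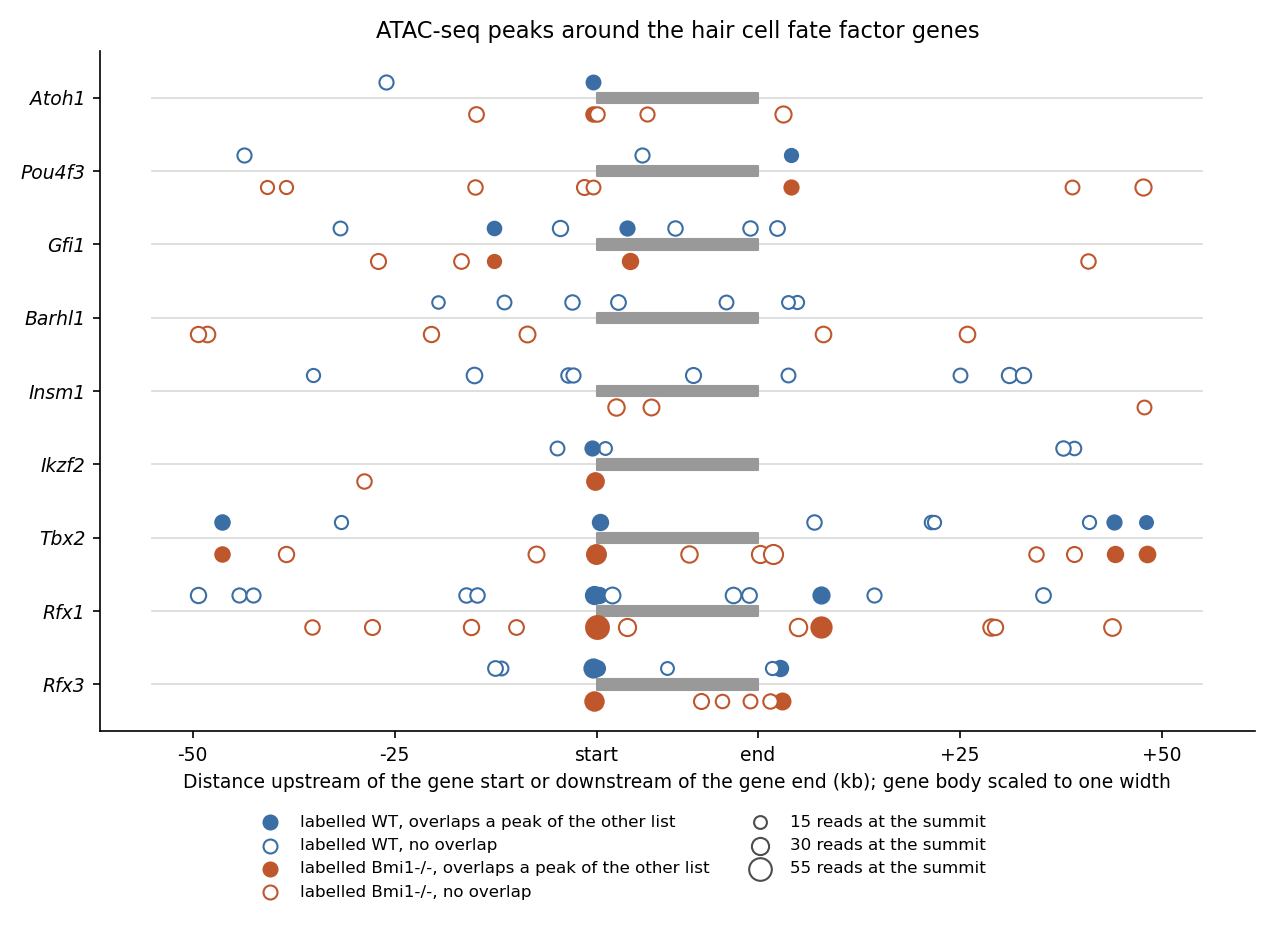
Each circle is 1 peak, placed by its distance in kb upstream of the gene start or downstream of the gene end, with the gene body (grey) scaled to one width. Blue circles above the line are labelled WT, orange circles below it Bmi1-/-, filled circles overlap a peak of the other list, and the area grows with the number of reads at the summit. Open circles outnumber filled ones, with 47 of 62 labelled WT and 44 of 57 labelled Bmi1-/-. The filled ones are 24.2% and 22.8%, beside 24.8% and 18.5% over all peaks of the lists, where open ones are also the majority.

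The counts per gene went both ways. *Atoh1* had 2 peaks labelled WT and 5 labelled Bmi1-/-, and *Pou4f3* had 3 and 8. *Insm1* had 9 peaks labelled WT and 3 labelled Bmi1-/-, a ratio of 0.333 (0.058 to 1.34), and *Ikzf2* had 5 and 2. The counts of the others were closer, with 7 and 5 for *Gfi1*, 7 and 6 for *Barhl1*, 9 and 11 for *Tbx2*, 13 and 11 for *Rfx1*, and 7 and 6 for *Rfx3*. The interval of the ratio included 1 for each of the 9 genes, and also the ratio of 1.29 over all peaks of the lists. These intervals treat each listed peak as an independent count. Per 100 kb the densest regions were those of *Rfx1*, with 9.99 peaks labelled WT, and *Tbx2*, with 10.1 peaks labelled Bmi1-/-. The sparsest was that of *Ikzf2*, with 1.95 and 0.781. The median over all protein-coding genes was 5.20 and 6.56 peaks per 100 kb, and over the 9 genes 6.40 and 4.90.

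Most member peaks had no counterpart in the other list. Of those labelled WT, 15 of 62 (24.2%, 14.2 to 36.7) overlapped a peak labelled Bmi1-/- by at least 1 bp, where 24.8% of all peaks labelled WT did. Of those labelled Bmi1-/-, 13 of 57 (22.8%, 12.7 to 35.8) overlapped a peak labelled WT, where 18.5% of all peaks did. Promoter peaks overlapped more often, 8 of 15 labelled WT (53.3%, 26.6 to 78.7) and 6 of 12 labelled Bmi1-/- (21.1 to 78.9). The shares over all peaks within 3 kb of a TSS were 43.3% and 32.3%. Of the member peaks farther than 3 kb from any TSS, neighbouring genes included, 4 of 36 labelled WT (11.1%, 3.11 to 26.1) and 4 of 38 labelled Bmi1-/- (10.5%, 2.94 to 24.8) overlapped, with 15.4% and 11.7% over all such peaks. The shares of all member peaks and of those far from a TSS stood close to the shares over all peaks. Those of promoter peaks were higher than over all peaks near a TSS, with wide intervals from few peaks. The intervals of the members included the share over all peaks in each case.

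Many of the unmatched peaks were too weak for their absence from the other list to be read. For each peak the number of reads was scaled to the background of the other library, and the lower bound of its counting interval was set against the fewest reads that could be listed there. Of the peaks without an overlap, 9 of 47 labelled WT and 3 of 44 labelled Bmi1-/- passed this limit, and 0 of these were promoter peaks. Over all peaks without an overlap 17.1% and 5.20% passed it, close to the shares of the members. The 3 labelled Bmi1-/- lay downstream of *Atoh1*, *Pou4f3* and *Tbx2*. The 9 labelled WT lay around *Gfi1* (3), *Insm1* (3), *Ikzf2*, *Rfx1* and *Rfx3* (1 each). 

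The overlap of member peaks by strength also stood near that of all peaks. A q-value of at most 0.05, adjusted within each library, was reached by 34 of 62 member peaks labelled WT (54.8%, with 52.4% over all peaks of the list) and by 40 of 57 labelled Bmi1-/- (70.2%, with 62.8%). Among those above 0.05, 5 of 28 labelled WT overlapped (17.8% of all such peaks did) and 3 of 17 labelled Bmi1-/- (10.5%). Among those with a q of at most 0.05 and a −log10 q under 5, 9 of 33 labelled WT overlapped (29.2% of all such peaks) and 7 of 37 labelled Bmi1-/- (18.9%). A −log10 q of at least 5 was reached by 1 member peak labelled WT, at the *Rfx3* promoter (10.1), and by 3 labelled Bmi1-/-, at the promoters of *Rfx1* (13.0), *Rfx3* (7.89) and *Dcaf15*, a neighbour of *Rfx1* (6.82). Over all peaks 1.63% and 4.23% reached it. All 4 overlapped a peak of the other list, as did 90.8% and 82.8% of all peaks of that strength.

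*Atoh1* (chr6:64729125-64731245, plus strand) had a shared peak upstream of its TSS and more peaks labelled Bmi1-/- than WT. In the list labelled WT there were 2 peaks, 1 centred 393 bp upstream of the TSS with 18 reads over a background of 6.32, and 1 centred 26123 bp upstream with 19 reads. In the list labelled Bmi1-/- there were 5, centred 14946 bp upstream (21 reads), 436 bp upstream (20 reads), on the TSS (20 reads), 668 bp downstream of it in the coding exon (19 reads) and 5194 bp downstream of it (26 reads). The peak upstream of the promoter was shared, with an overlap of 220 bp and summits 14 bp apart. Relative to its background it was 2.85 times enriched labelled WT and 2.49 times labelled Bmi1-/-, a ratio of 0.873 (0.439 to 1.75).

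The last of these peaks was the strongest around *Atoh1*. Its centre lay 3074 bp past the gene end, on the side where the autoregulatory enhancer of *Atoh1* is known to lie, although the position of that enhancer was not taken from any file here. With 26 reads over 8.04 it had a −log10 q of 3.56 and stood at the 91.9th percentile of its list, meaning that it was at least as strong by p-value as that share of the listed peaks. No peak labelled WT overlapped it. At the background of the other library it would correspond to 20.4 reads, and its lower bound to 13.4, against a minimum of 13 reads in the list labelled WT. None of the 6 motifs searched was found in the printed stretch of this peak. The E-boxes among them were CAGCTG and CAGATG only, and CAGGTG, an E-box that occurs near the start of this stretch, was not searched.

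*Pou4f3* (chromosome 18), a POU homeodomain gene that hair cells need for survival, had promoter peaks at different places in the lists. Labelled WT the peak was centred 230 bp downstream of a TSS in the coding exon, with 19 reads over 6.32. Labelled Bmi1-/- there were 2 upstream, centred 1506 bp and 473 bp from the TSS, with 22 and 18 reads over 8.04. None of these overlapped. A peak 4048 bp past the gene end was shared, with 16 reads labelled WT and 19 labelled Bmi1-/- and a ratio of 0.933 (0.455 to 1.94). The strongest peak outside the promoter was labelled Bmi1-/-, 47690 bp past the gene end, with 26 reads and the 91.9th percentile. In the list labelled WT it was a peak 43715 bp upstream with 19 reads and the 73.7th percentile.

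*Gfi1* (chr5:107716657-107726036, minus strand), which encodes a zinc finger repressor, had weak promoter peaks in both lists. Labelled WT there were 2, centred 2870 bp downstream of a TSS in a coding exon (20 reads over 8.40) and 94 bp downstream of a TSS (19 reads over 8.10), and labelled Bmi1-/- there was 1, 253 bp downstream (23 reads over 10.4). The peaks at 94 and 253 bp overlapped by 195 bp with a ratio of 0.943 (0.491 to 1.83), and they lie within 3 kb of *A430072P03Rik* as well. The strongest peak outside the promoter labelled WT was 4562 bp upstream, with 23 reads over 6.44 at the 94.0th percentile, and no peak labelled Bmi1-/- overlapped it. In the list labelled Bmi1-/- the strongest was 27007 bp upstream with 22 reads at the 71.9th percentile.

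*Barhl1* (chr2:28907679-28916668, minus strand), a homeobox gene for the long-term maintenance of hair cells, was the gene with a promoter peak in 1 list. That peak was labelled WT, centred 43 bp downstream of a TSS in a coding exon, with 21 reads over 8.10, a −log10 q of 1.42 and the 51.9th percentile. Scaled to the background of the other library it would correspond to 26.7 reads, against a minimum of 18 there, but its lower bound did not reach that minimum. The 6 peaks labelled Bmi1-/- all lay outside the promoter, and the strongest was 25918 bp past the gene end with 24 reads at the 85.6th percentile. The strongest labelled WT outside the promoter was 3101 bp upstream of a TSS with 20 reads at the 30.6th percentile. None of the 7 and 6 peaks overlapped between the lists.

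*Insm1* (chr2:146221921-146225020, plus strand), a zinc finger gene of developing outer hair cells, had promoter peaks in both lists that did not overlap. Labelled WT they were centred 2875 bp upstream and 1843 bp downstream of the TSS, with 19 and 22 reads, and labelled Bmi1-/- 364 bp and 1048 bp downstream of it, with 27 and 25 reads. All but the upstream one lay in the coding exon. Among the 9 peaks labelled WT, 3 outside the promoter stood above the 95th percentile. These were centred 15226 bp upstream with 24 reads over 6.32 (96.8th percentile) and 31123 and 32761 bp past the gene end with 23 reads each (95.3rd percentile). The last of them lies within 3 kb of a TSS of *A930019D19Rik*. None of the 3 overlapped a peak labelled Bmi1-/-. The only peak labelled Bmi1-/- outside the promoter, 47737 bp past the gene end, had 18 reads at the 19.3rd percentile.

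*Ikzf2* (chr1:69531214-69687245, minus strand), which encodes the Ikaros family factor Helios of outer hair cells, had a shared promoter peak of different rank. It had 19 reads over 6.40 labelled WT and 28 reads over 8.08 labelled Bmi1-/-, at the 66.8th and 94.5th percentile, and the peaks overlapped by 311 bp. The enrichment ratio was 1.17 (0.629 to 2.21), so that the interval of the ratio included 1. Outside the promoter the strongest peak labelled WT was 37743 bp past the gene end, within 3 kb of *Gm29113*, with 20 reads at the 83.0th percentile. The only other peak labelled Bmi1-/- was 28839 bp upstream with 20 reads at the 48.0th percentile.

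*Tbx2* (chr11:85832551-85841948, plus strand), the T-box gene of inner hair cells, had the widest gap in rank. Its promoter peak was centred 223 bp downstream of the TSS labelled WT, with 23 reads over 10.2 at the 32.8th percentile, and 71 bp upstream labelled Bmi1-/-, with 37 reads over 13.7 at the 92.6th. The peaks overlapped by only 3 bp, their summits were 281 bp apart, and the ratio was 1.19 (0.691 to 2.10). Both lie within 3 kb of *2610027K06Rik* too. Outside the promoter the strongest peak labelled Bmi1-/- was 1798 bp past the gene end, with 38 reads over 15.4 at the 89.6th percentile and no overlap. The strongest labelled WT was 44083 bp past the gene end at the promoter of the neighbour *Tbx4*, with 19 reads at the 62.6th percentile, and it was shared.

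*Rfx1* and *Rfx3*, whose products bind X-box sequences, had the strongest promoter peaks of the 9 genes in both lists. At *Rfx1* (chr8:84066834-84096992, plus strand) the strongest was centred 320 bp upstream labelled WT, with 30 reads over 9.06 at the 97.0th percentile, and 60 bp downstream labelled Bmi1-/-, with 56 reads over 13.8 at the 99.5th. The ratio was 1.22 (0.771 to 1.97). The peak labelled Bmi1-/- was 1113 bp wide and also overlapped a further peak labelled WT with 23 reads over 9.54. That pair gave a ratio of 1.68 (1.02 to 2.86) for the same 56 reads. Its summits were 576 bp apart, so this ratio does not compare reads at the same place. Another promoter peak labelled WT lay 2959 bp downstream with 25 reads. Other genes, *Gm10643* and *C330011M18Rik*, start within 3 kb of the shared promoter peaks. The strongest peak outside the promoter was at the promoter of the neighbour *Dcaf15* in the list labelled Bmi1-/-, with 43 reads over 13.2 at the 97.7th percentile, and the peak labelled WT that overlapped it had 26 reads over 10.3. In the list labelled WT the strongest outside the promoter was 49356 bp upstream, with 23 reads over 8.04 at the 78.1st percentile.

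At *Rfx3* (chr19:27761721-28011166, minus strand) the strongest promoter peak was centred 449 bp upstream labelled WT, with 34 reads over 6.32 at the 99.6th percentile. Labelled Bmi1-/- it was 262 bp upstream and 1796 bp wide, with 35 reads over 8.34 at the 98.3rd. The ratio was 0.781 (0.473 to 1.29), and the summits were 42 bp apart. The wide peak also covered a second peak labelled WT, centred 57 bp upstream of a TSS, with 22 reads, and another promoter peak labelled WT, with 15 reads, lay 1832 bp upstream of an internal TSS. A peak downstream of the gene was shared, 2763 bp past its end labelled WT (23 reads over 6.32, 95.3rd percentile) and 2903 bp labelled Bmi1-/- (25 reads over 8.04, 89.4th). Its ratio was 0.854 (0.465 to 1.58), and it was the strongest peak of this gene outside promoters in both lists.

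**Figure D2:**
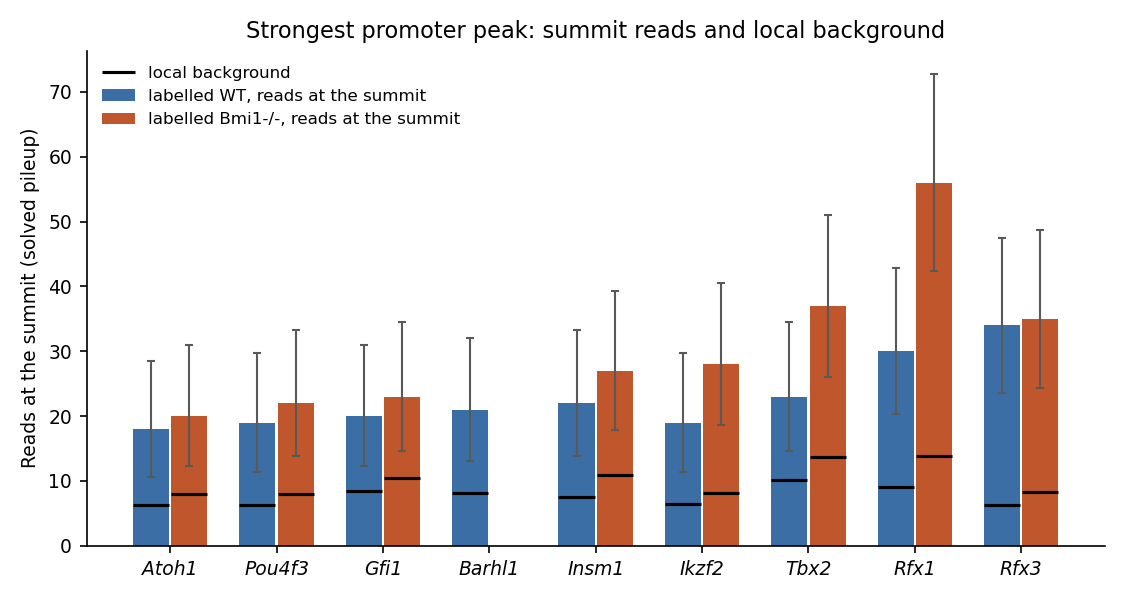
Bars show the reads at the summit of the strongest promoter peak of each gene, solved from the deposited values, in blue for the list labelled WT and in orange for that labelled Bmi1-/-. Error bars are exact 95% Poisson intervals (counting error only), and black lines give the local background in reads. Each bar is to be read against its own black line, since the libraries differ in background. The background is higher labelled Bmi1-/- at each of the 8 genes with both bars, and *Barhl1* has no bar labelled Bmi1-/-.

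Read counts of the lists are not on a common scale, so the strongest promoter peak of each gene was also compared by its percentile within its own list. It stood higher labelled Bmi1-/- for *Gfi1*, *Ikzf2*, *Tbx2* and *Rfx1*, that is 4 of 9 genes (44.4%, 13.7 to 78.8), and higher labelled WT for the other 5, of which *Barhl1* had no promoter peak labelled Bmi1-/-. With promoters of 1 kb the counts turned to 5 higher labelled Bmi1-/- and 4 higher labelled WT, so that their order depended on this window. Among the protein-coding genes that had one in at least 1 list, 68.4% stood higher labelled Bmi1-/- (70.7% with promoters of 1 kb). The 90th percentile was reached by *Rfx1* and *Rfx3* labelled WT, as by 18.3% of all protein-coding genes, and by *Ikzf2*, *Tbx2*, *Rfx1* and *Rfx3* labelled Bmi1-/-, as by 30.6%. For *Atoh1* the percentile was 60.6 labelled WT and 48.0 labelled Bmi1-/-, for *Pou4f3* 73.7 and 71.9, for *Gfi1* 31.5 and 34.7, and for *Insm1* 77.6 and 72.2. These promoters thus stood below the median of all genes with a promoter peak, which was 76.9 and 87.3, except for *Insm1* labelled WT.

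**Figure D3:**
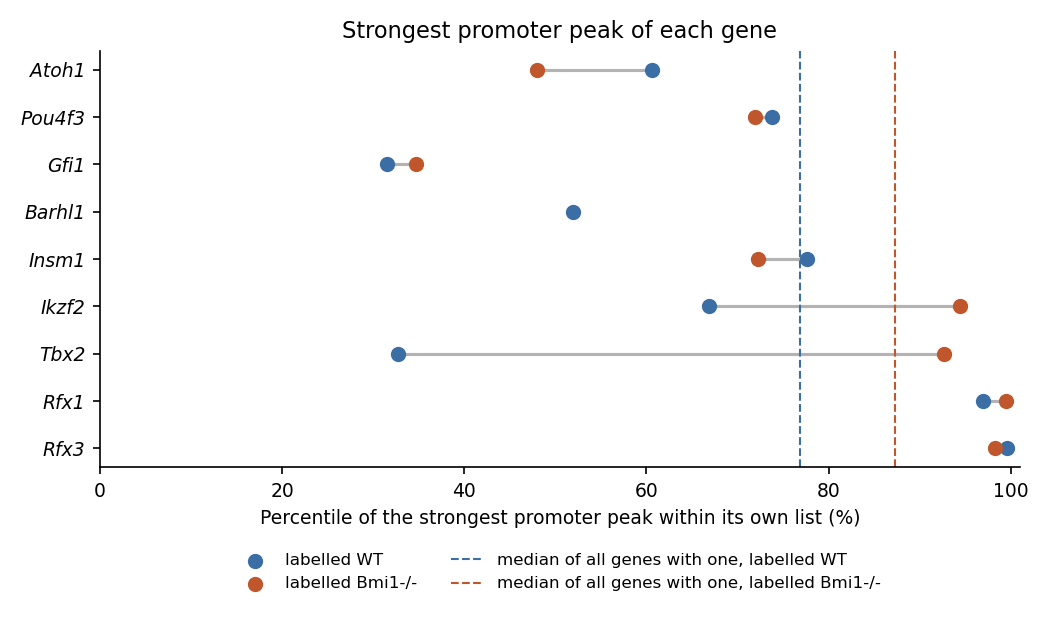
Percentile of the strongest promoter peak of each gene within its own list (0 to 100%), in blue for the list labelled WT and in orange for that labelled Bmi1-/-, with dashed lines at the medians over all protein-coding genes that have one (76.9 and 87.3). *Tbx2* (32.8 and 92.6) and *Ikzf2* (66.8 and 94.5) are farthest apart, and *Rfx1* and *Rfx3* stand above 96 in both lists.

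Overlapping promoter peaks were compared by their enrichment over background, with the strongest pair taken for each gene. Such a pair was found for 6 members, *Atoh1*, *Gfi1*, *Ikzf2*, *Tbx2*, *Rfx1* and *Rfx3*, and for 40.4% of all protein-coding genes. A promoter with a peak in only 1 list, as at *Barhl1*, could not enter this comparison. Neither could *Pou4f3* and *Insm1*, whose promoter peaks did not overlap. The ratios thus cover only promoters that were listed at the same place in both libraries. The ratio labelled Bmi1-/- over WT ranged from 0.781 to 1.22 with a median of 1.06, and the median over all 8853 genes with such a pair was 1.02. A ratio of at least 1.5 was found for 0 of the 6 and for 3.86% of all genes, and a ratio of at most 0.667 for 0 of the 6 and for 2.03%. Each of these 6 intervals included 1. That of the second *Rfx1* pair given above did not (1.02 to 2.86), but the summits of that pair were 576 bp apart. The interval of *Atoh1* ran from 0.439 to 1.75, so that a difference within these bounds was not detectable at this depth.

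**Figure D4:**
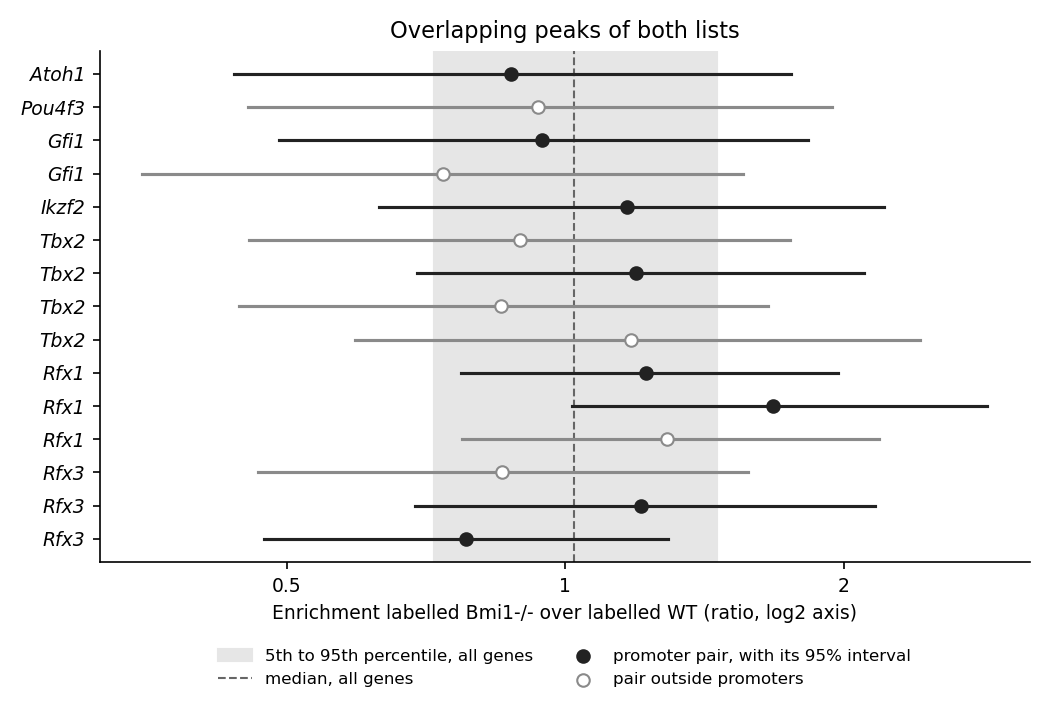
Enrichment labelled Bmi1-/- over labelled WT at each of the overlapping pairs of member peaks, on a log2 axis, with exact 95% intervals for counting error. Filled points are promoter pairs and open points lie elsewhere, the dashed line is the median over all genes (1.02), and the grey band runs from the 5th to the 95th percentile of all genes (0.722 to 1.46). The intervals include 1 except for the second *Rfx1* pair (1.02 to 2.86), whose peak labelled Bmi1-/- is that of the first. The summits of this second pair were 576 bp apart.

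Motifs of the factors themselves were counted within 100 bp of the summits, on both strands. CAGCTG, the E-box of ATOH1 dimers, was found at 13 of 62 member peaks labelled WT (21.0%, with 13.1% over all peaks of the list) and at 8 of 57 labelled Bmi1-/- (14.0%, with 13.5%). Within 50 bp the shares labelled WT came closer, 8.06% of the members with 6.67% of all peaks, and labelled Bmi1-/- they were 8.77% and 7.02%. CAGATG, another E-box, was found at 8 of 62 (12.9%, with 16.6%) and at 8 of 57 (14.0%, with 16.6%), and the shared stretch upstream of the *Atoh1* TSS held it on the minus strand. GTTGCC, the half-site of the X-box, was found at 2 of 62 (3.23%, with 6.87%) and 4 of 57 (7.02%, with 7.10%). The peak shared downstream of *Pou4f3* held both CAGCTG and GTTGCC in both lists. TNATTAAT, for POU4 factors, was found at 0 peaks labelled WT and at 1 labelled Bmi1-/-, 38403 bp upstream of *Pou4f3* (0.930% and 0.842% of all peaks). AGGTGTGA, for T-box factors, was found at 0 and 1, the latter 28839 bp upstream of *Ikzf2* (1.35% and 1.23%), and AAATCAC, for GFI1, at 0 and 0 (1.38% and 1.35%). These matches are descriptions of the letters and do not show binding.

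The promoters of *Rfx1* and *Rfx3* shared more than the half-site. GTTGCC is held by 12.5% of the 32851 RefSeq promoters and by these 2 of the members. In both it ends the string TAGCAACNGTTGCC, which was noticed after the sequences had been read and was then searched on both strands in all promoters. It was found in 5 of 32851 (0.0152%), those of *Rfx1*, *Rfx3*, *Ezr*, *Lrrc56* and *Nat14*, and within 100 bp of the summit of 0 of 77596 peaks labelled WT and 1 of 100431 labelled Bmi1-/-. The *Rfx3* window had 68.0% GC and an observed over expected CpG ratio of 1.02, that of *Rfx1* 60.3% and 0.931 and that of *Atoh1* 56.7% and 0.840. The medians over all promoters were 52.7% and 0.384. The *Gfi1* windows had 58.0% GC each and CpG ratios of 0.412 and 0.641. The *Barhl1* windows had 54.0% and 50.3% GC, the latter below the median, and CpG ratios of 0.646 and 0.476. GC content at the member peaks had a median of 54.2% labelled WT and 53.2% labelled Bmi1-/-, beside 52.7% over all peaks of both lists.

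The genes around the fate factors in the same pathways were described by their promoter peaks alone. Over all protein-coding genes 53.0% had a promoter peak in both lists, 15.2% only labelled Bmi1-/- and 6.10% only labelled WT. The partners and inhibitors of ATOH1 are the E proteins *Tcf3*, *Tcf4* and *Tcf12* and the Id genes, whose products keep E proteins from binding DNA, and 7 of 7 had a promoter peak in both lists. The strongest labelled WT were *Tcf12*, *Id4* and *Id3*, at the 98.3rd, 95.3rd and 93.0th percentile. Labelled Bmi1-/- they were *Id4*, *Tcf12* and *Tcf3*, at the 96.9th, 93.7th and 89.8th. The Notch pathway as a whole restrains *Atoh1* in supporting cells, though not each of its genes does. Of 9 Notch pathway genes, 7 had a promoter peak in both lists and 2 only labelled WT. The 2 were the ligand *Dll3* and the effector *Hes5*, at the 12.9th and 14.5th percentile. The strongest were the effectors *Hey1*, *Hey2* and *Heyl* labelled WT (98.0th, 90.2nd and 86.2nd percentile), and *Hey2*, *Hes1* and *Heyl* labelled Bmi1-/- (98.0th, 96.9th and 94.5th).

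Of 19 other transcription factors, known from hair cells or their precursors or related to the members by family, 14 had a promoter peak in both lists. *Nhlh1*, *Pou4f1* and *Ikzf3* had one only labelled Bmi1-/-, at the 63.5th, 89.4th and 71.9th percentile, and *Lhx3* and *Eya1* only labelled WT, at the 32.2nd and 27.0th. The strongest labelled WT were *Insm2*, *Rfx2* and *Barhl2* (98.4th, 97.9th and 96.0th percentile), and labelled Bmi1-/- *Rfx7*, *Rfx2* and *Sox2* (98.5th, 98.2nd and 97.1st). *Rfx2*, a relative of *Rfx1* and *Rfx3*, was thus among the 3 strongest of its list in both libraries.

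Markers of the cell types that the dissected tissue can hold were counted in the same way. Of 15 hair cell markers, 7 had a promoter peak in both lists, 4 only labelled Bmi1-/- (*Otof*, *Ocm*, *Strc* and *Slc26a5*), 2 only labelled WT (*Chrna9* and *Pvalb*) and 2 in neither (*Tmc1* and *Lhfpl5*). Of 15 supporting cell markers the counts were 8, 2, 3 and 2, of 10 neuron markers 5, 4, 1 and 0, and of 8 glia markers 5, 1, 0 and 2, in the same order. The counts were 2, 2, 2 and 2 of 8 mesenchyme markers, 1, 1, 3 and 3 of 8 blood and macrophage markers, and 3, 0, 2 and 1 of 6 endothelium markers. Over all protein-coding genes the shares were 53.0%, 15.2%, 6.10% and 25.7%, in the same order. An open promoter is not particular to a cell type, and the part of the cell composition in the values above was not tested.

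**Figure D5:**
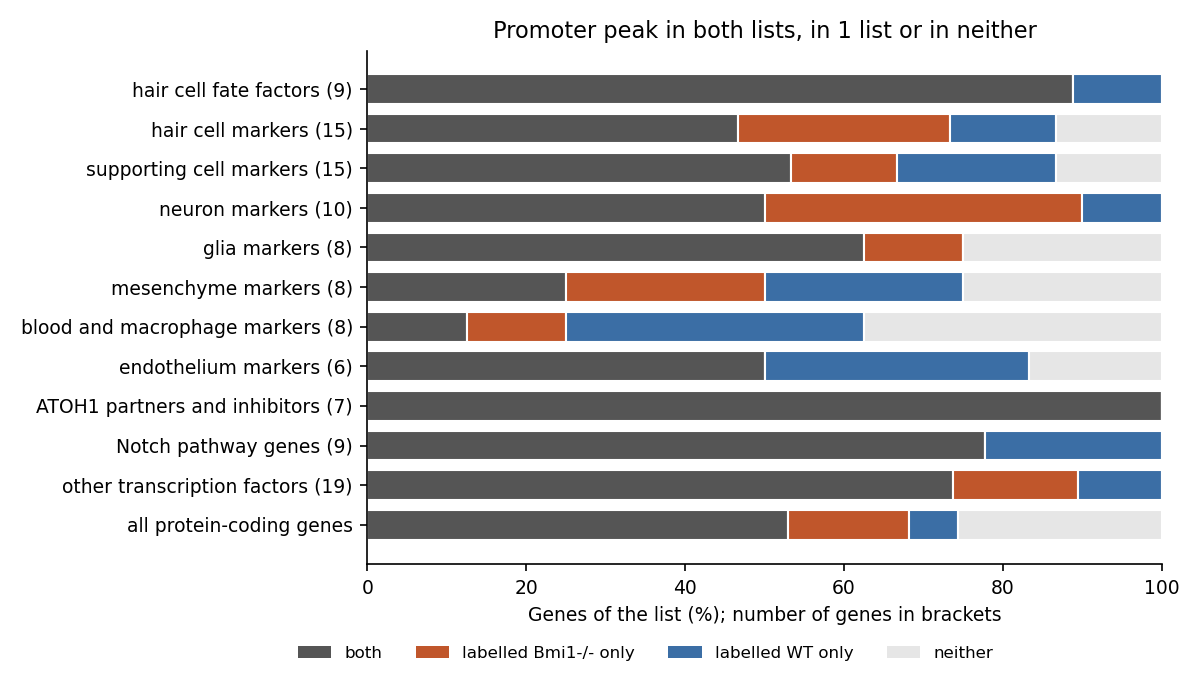
Bars give the share of genes in each list (%) with a promoter peak in both libraries (dark grey), only labelled Bmi1-/- (orange), only labelled WT (blue) or in neither (light grey), with the number of genes in brackets. The fate factors (8 of 9 in both) and the ATOH1 partners and inhibitors (7 of 7) have few or no genes outside the dark bar, beside 53.0% in both over all protein-coding genes. Of all protein-coding genes 15.2% have one only labelled Bmi1-/-, 6.10% only labelled WT and 25.7% in neither.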

How the data were processed

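Accessible chromatin was measured in 1 library per genotype. The authors removed adapters and low-quality bases, used FastQC, aligned paired-end reads using BWA-MEM and ran MACS2 on each library, and HOMER and build mm10 are named in the submitters' processing notes. Versions and options are not given in the sources used here. The deposited values of each peak are a fold enrichment (a ratio of summit pileup over local background), a −log10 p and a −log10 q, and a score that was not used.

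Reads at the summit and the background were solved from these values, assuming a Poisson model and a pseudocount of 1, which gave whole reads for 100% of peaks within 0.001 of −log10 p, and for 100% of 1000 simulated peaks per list. The read total of each library is unknown, so depth is known only as this background. Peaks on unplaced sequences (230 labelled WT and 237 labelled Bmi1-/-) were left out, and 0 peaks ran past a chromosome end of GRCm38. GENCODE vM21 gave the TSS and RefSeq GRCm38.p6 the sequences. Percentiles rank −log10 p within a list. Enrichment ratios have exact conditional intervals, shares exact binomial intervals (Clopper-Pearson) and reads exact Poisson intervals. Python 3.11.15, numpy 2.4.6, pandas 2.3.3, scipy 1.17.1, pysam 0.24.0 and matplotlib 3.10.9 were used.

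The named genes were the 9 members with every promoter peak and the strongest peak outside promoters in each list, every peak of *Atoh1*, and of 3 pathway lists the 3 genes with the strongest promoter peak in each list and those with one in 1 list only. The members, lists, motifs and alternatives were chosen with earlier results of these data known. The alternatives were stricter q-values, equal numbers of peaks, other overlaps, flanks, promoter and motif windows, a common background, and leaving out peaks at promoters of other genes.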

Additional observations from a re-analysis of the deposited data

How the results depend on the processing

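No paired analysis was possible because each genotype had 1 library, and for the same reason no library could be left out. Of 104 values under the alternatives, 71 moved by less than their counting interval or, for counts, by less than 1.5 times, and 33 moved further. Among the 71, the enrichment ratios changed only with a common background. The other settings took the same pairs of peaks, so the ratios under them do not show stability. Ratios whose pair was lost are not among the 104. With q of at most 0.05 *Gfi1* and *Tbx2* lost their pair. A reciprocal overlap of 50% left the pair of *Atoh1* alone, and −log10 q of at least 5 that of *Rfx3* alone. The cause of the larger moves was not tested, except where an alternative takes fewer or more peaks by its own construction. With equal numbers of peaks, summits within 200 bp, a common background or without peaks at promoters of other genes, 0 of the values moved further.

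With q of at most 0.05, 34 member peaks labelled WT and 40 labelled Bmi1-/- were left, so the order of the counts turned. In this setting 1 member had a promoter peak only labelled Bmi1-/- (*Tbx2*) and 1 in neither list (*Gfi1*). Of the 35 genes of the pathway lists, 7 then had one only labelled Bmi1-/-, 0 only labelled WT and 6 in neither, and of the hair cell markers 1 only labelled WT and 4 in neither. Over all protein-coding genes 20.9% then had one only labelled Bmi1-/- and 5.80% only labelled WT. With −log10 q of at least 5, member peaks fell to 1 labelled WT and 3 labelled Bmi1-/-, of which 100% (1 of 1) and 33.3% (1 of 3) overlapped within the reduced lists, with 68.8% and 20.3% over all peaks. Then 1 member had a promoter peak in both lists, 1 only labelled Bmi1-/-, 0 only labelled WT and 7 in neither, and 1 each ranked higher labelled Bmi1-/- and WT. Over all protein-coding genes 3.22% then had one in both lists, 14.4% only labelled Bmi1-/- and 0.948% only labelled WT. Of those with one, 85.1% ranked higher labelled Bmi1-/-. A reciprocal overlap of 50% left 8.06% of the peaks labelled WT and 8.77% of those labelled Bmi1-/- shared, with 13.1% and 10.2% over all peaks, inside the members' intervals (2.67 to 17.8 and 2.91 to 19.3). Flanks of 10 kb gave 33 and 29 peaks, and flanks of 100 kb gave 99 and 113, so the order of the counts turned. With promoters of 1 kb, 1 member (*Insm1*) and 6 pathway genes had a peak only labelled Bmi1-/- and 1 pathway gene had none, and of the hair cell markers 1 had one only labelled WT and 4 had none. In the same setting 5 members ranked higher labelled Bmi1-/- and 4 labelled WT, against 4 and 5. Over all protein-coding genes 17.0% then had a promoter peak only labelled Bmi1-/- and 5.68% only labelled WT. Of those with one, 70.7% ranked higher labelled Bmi1-/-. Within 50 bp of summits CAGCTG was found at 5 peaks labelled WT and 5 labelled Bmi1-/- (8.06% and 8.77%, with 6.67% and 7.02% over all peaks), GTTGCC at 0 and 1 (3.58% and 3.70% over all peaks), and TNATTAAT at 0 labelled Bmi1-/-.

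The weakest listed peaks had 13 and 15 reads, so differences within the wide intervals were not detectable at this depth.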
